A study of Mus musculus with 4 samples.

Results

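De novo lipogenesis turns surplus carbohydrate into fatty acids, and 10 of its enzymes and regulators are described here in mouse liver. They are Srebf1, Mlxipl, Acly, Acaca, Acacb, Fasn, Elovl6, Scd1, Thrsp and Me1, out of 23462 genes that could be named on the array. The members were taken as a list of known lipogenic genes, and a probe belongs to one of them where its accession is a RefSeq transcript of that gene. All 10 genes had a probe, 18 probes in all, each printed as 1 spot. The arrays are Agilent 1-colour expression arrays of Cy5-labelled total RNA from whole liver of male mice, with 1 array for each of 4 groups. The control array holds naturally aged mice given no drug. The diabetic array holds mice of an aging type 2 diabetes model with no drug. The metformin array holds such diabetic mice given metformin, a glucose-lowering biguanide. The combination array holds such diabetic mice given astragalus polysaccharide, a carbohydrate fraction of Astragalus root, together with metformin. All 4 titles carry 60 d, and the labels do not say what the time counts from. None of the labels gives the age of the mice, the way diabetes was induced, the doses or whether mice were pooled.

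In the cytosol, ATP-citrate lyase (Acly) splits citrate into acetyl-CoA. The acetyl-CoA carboxylases (Acaca and Acacb) turn acetyl-CoA into malonyl-CoA. Fatty acid synthase (Fasn) builds palmitate from these units with NADPH, part of which malic enzyme (Me1) supplies. Elovl6 then lengthens palmitate to stearate, and stearoyl-CoA desaturase (Scd1) places a double bond. In liver the pathway is switched on after carbohydrate feeding by SREBP-1c, a product of Srebf1 that answers to insulin, and by ChREBP, the product of Mlxipl that answers to glucose. Thrsp encodes Spot 14, a small nuclear protein induced with the pathway by thyroid hormone and carbohydrate.

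Gene starts of 9 of the 10 members are in the RefSeq promoter table (GRCm38.p6), as 13 windows that run from 250 bases before to 50 after a start. The windows of 4 members are shown because their genes differed in behaviour. Elovl6 and, with flagged spots kept, Fasn were lower on both treated arrays than on the diabetic array. So were other members whose windows are not shown, among them Acaca and Acacb. Acly and Mlxipl were not lower on the combination array than on the diabetic array when a gene's probes were averaged, although a probe of each was lower. Capitals mark matches, on either strand, to 4 motifs. The sterol regulatory element, which SREBP binds, was searched as TCACNCCAC. The E-box, bound by helix-loop-helix factors such as USF, was searched as CACGTG. The CCAAT box, which NF-Y binds, was searched by the letters of its name. The GC box, which Sp1 binds, was searched as GGGCGG.
Elovl6, chr3:129532136-129532435, plus strand: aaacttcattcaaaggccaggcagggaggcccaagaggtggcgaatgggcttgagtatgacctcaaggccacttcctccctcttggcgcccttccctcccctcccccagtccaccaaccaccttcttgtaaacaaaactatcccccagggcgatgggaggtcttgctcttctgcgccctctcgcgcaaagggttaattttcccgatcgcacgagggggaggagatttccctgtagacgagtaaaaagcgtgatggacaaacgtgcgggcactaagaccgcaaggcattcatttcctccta
Fasn, chr11:120824498-120824797, minus strand: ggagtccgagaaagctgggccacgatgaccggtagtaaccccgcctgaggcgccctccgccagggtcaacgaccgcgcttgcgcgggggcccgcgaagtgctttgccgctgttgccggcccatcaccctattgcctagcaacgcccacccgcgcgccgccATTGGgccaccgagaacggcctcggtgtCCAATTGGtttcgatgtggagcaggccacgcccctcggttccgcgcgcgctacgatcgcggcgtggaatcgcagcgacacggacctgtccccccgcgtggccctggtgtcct
Acly, chr11:100527951-100528250, minus strand: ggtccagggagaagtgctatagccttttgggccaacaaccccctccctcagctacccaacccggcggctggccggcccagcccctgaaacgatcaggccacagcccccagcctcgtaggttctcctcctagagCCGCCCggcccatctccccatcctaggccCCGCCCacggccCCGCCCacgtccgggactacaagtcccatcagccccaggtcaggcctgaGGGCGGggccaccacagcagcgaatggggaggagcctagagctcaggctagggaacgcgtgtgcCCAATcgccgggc
Mlxipl, chr5:135106641-135106940, plus strand, 1 of its 2 windows: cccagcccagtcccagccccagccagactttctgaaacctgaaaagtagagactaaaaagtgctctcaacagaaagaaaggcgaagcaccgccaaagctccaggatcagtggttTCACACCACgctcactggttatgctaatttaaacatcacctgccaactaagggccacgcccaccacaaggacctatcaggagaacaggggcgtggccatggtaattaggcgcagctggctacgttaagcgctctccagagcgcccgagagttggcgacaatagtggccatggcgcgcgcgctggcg
The Elovl6 window held none of the 4 motifs and the Fasn window held 3 CCAAT matches. Those within the letters CCAATTGG overlap on opposite strands, so they are not separate sites. Of the 13 member windows, 8 held a CCAAT box and 5 a GC box, against 37.4% and 35.7% of all 32851 windows in the table. A sterol regulatory element of these letters was found in 1 member window, that of Mlxipl shown above, and in 1.24% of all windows. An E-box was in 1 member window, the other start of Mlxipl, and in 7.15% of all windows. These matches describe letters in short windows, and a missing match does not bear on whether a factor binds.

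The levels below are log2 processed signals minus the array's 75th percentile over the 51780 probes that carry no flag on any of the 4 arrays. That percentile lay at signals of 1159 to 1649. The arrays correlated at 0.950 to 0.965 across 24363 probes above background on all of them, and no spot was saturated. The scanner software flags spots of uneven brightness, and bright spots carry most flags. Of the 72 member spots 15 were flagged, 6 of them on the diabetic array and 3 on each other array. Scd1 and 1 of the 2 Me1 probes were flagged on all 4 arrays, and Fasn on the diabetic and metformin arrays. Values are therefore given both without flagged spots, where 7 members had a value in every comparison, and with them. On probes printed several times, flagged spots of the control array read a median of 0.08 above unflagged spots of the same probe, with an SD of 0.12 over 241 spots. The medians for the diabetic, metformin and combination arrays in turn were 0.08, 0.07 and -0.01, and the largest gap of a single spot was 2.14, on the diabetic array. Repeated unflagged spots gave a technical SD of 0.11 in log2 for a difference between 2 arrays. The software's own error of the median member spot comes to 0.16 in log2 for a difference. Both leave out the spread between mice, RNA preparations and hybridizations. The number of arrays limits the precision: each group has a single one, so differences are given without a test or p-value.

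**Figure D1:**
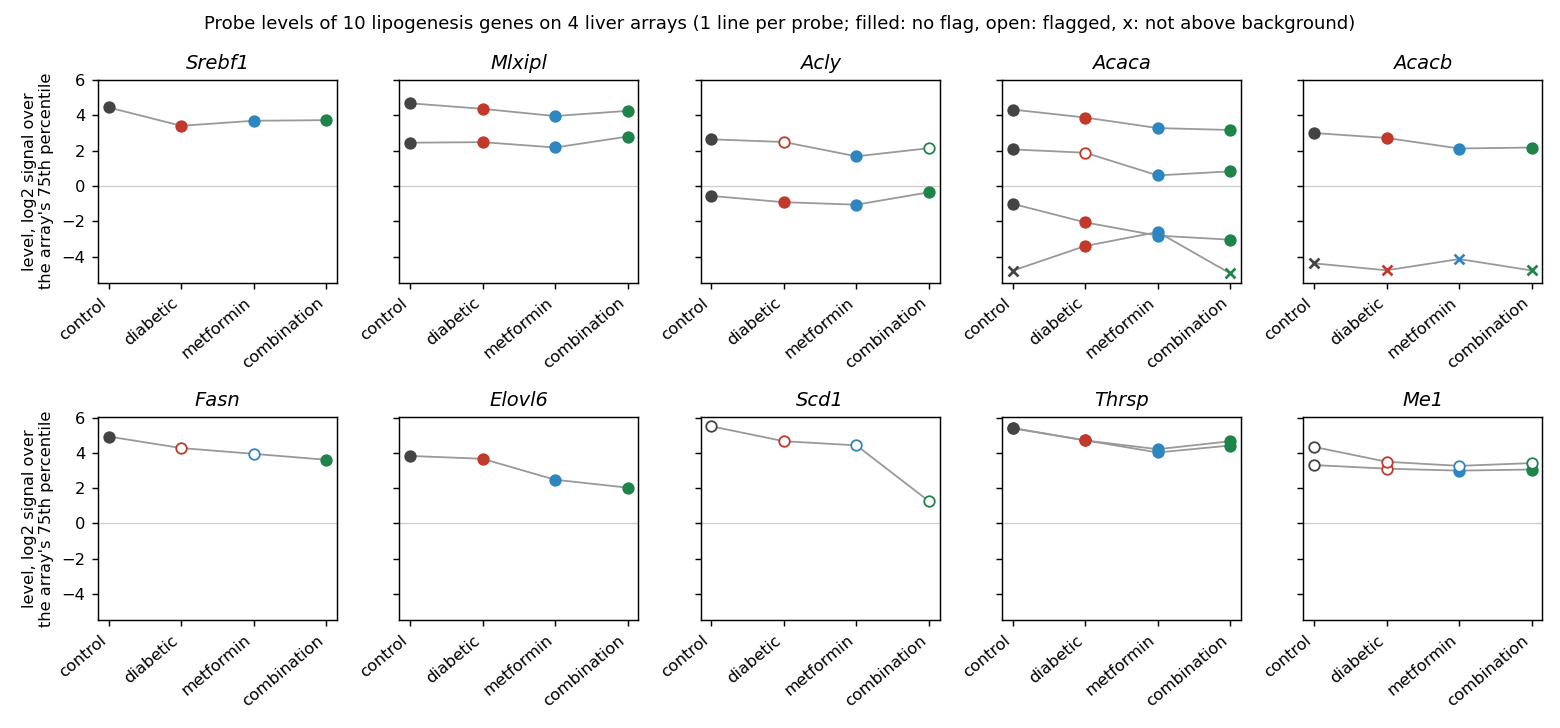
Level of each probe of the 10 lipogenesis genes (log2 signal over the array's 75th percentile) by array (control, diabetic, metformin, combination), 1 line per probe. Filled points are unflagged spots, open points flagged spots and crosses spots not above background. Scd1 stood at 5.50, 4.66, 4.42 and 1.26, and Elovl6 at 3.82, 3.66, 2.48 and 2.03.

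The control array held the highest level of most members. With all spots kept, each of the 10 genes was lower on the diabetic, the metformin and the combination array than on the control array when a gene's probes were averaged. The median differences from control were -0.54, -0.93 and -0.84 in log2. Of all measured genes 59.6%, 61.5% and 56.3% were lower in the same comparisons, with medians of -0.11, -0.19 and -0.07, so part of the shift is shared by the whole array under this scale. With the authors' deposited values, whose 4 columns share 1 median, 8, 10 and 9 of the 10 members were lower. Mlxipl was then higher on the diabetic and combination arrays and Elovl6 on the diabetic array. On the spike-in scale, over unflagged spots, Mlxipl was higher than control on all 3 other arrays, Elovl6 on the diabetic and Acly on the combination array. That scale is the median of only 6 spike-in probes, against 51780 probes for the main scale. Without flagged spots Acly was also above control on the combination array on the main scale (0.21). These 3 comparisons share the control array and are not independent.

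**Figure D2:**
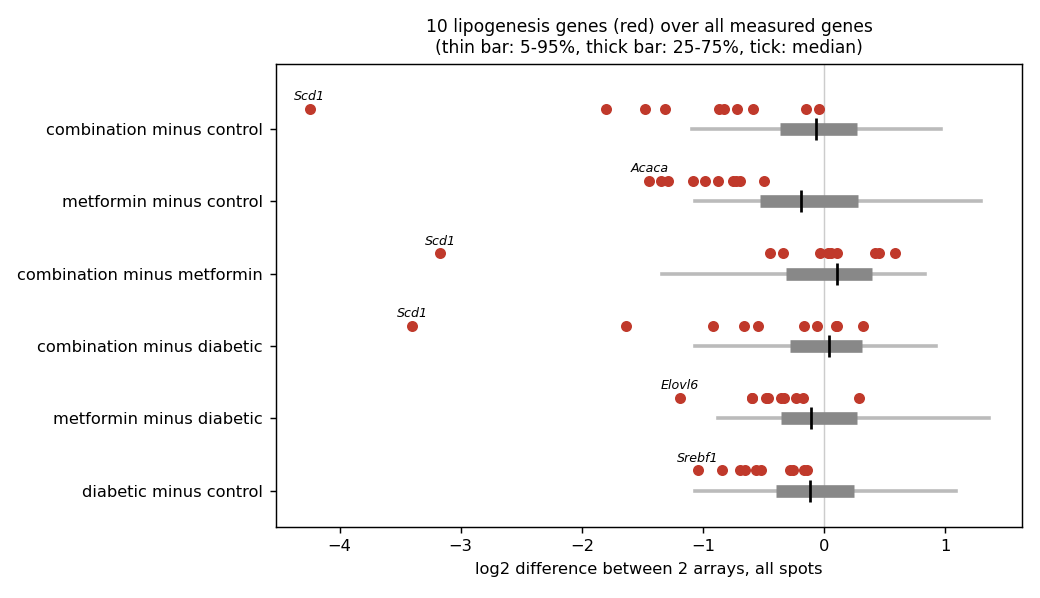
Log2 difference of each of the 10 lipogenesis genes (red points, all spots) in 6 comparisons of 2 arrays, over the spread of all measured genes (thin bars from the 5th to the 95th percentile, thick bars from the 25th to the 75th, ticks at the median). On this scale all 10 points lie below 0 in the 3 comparisons with control, unlike on the spike-in scale, and Scd1 lies furthest out in all comparisons that involve the combination array.

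The diabetic array against the control array asks what the disease model changed. Srebf1, the gene of the insulin-responsive activator, showed the largest difference of the members. Its 1 unflagged probe read 4.45 in control, 3.41 in diabetic, 3.70 in metformin and 3.74 in combination liver. The control value was the highest and the diabetic value the lowest of the 4. The difference of -1.04 from control to diabetic is 2.06-fold, against a technical SD of 0.11, and it was negative under all 17 settings tried, from -1.06 to -0.79. It reached 2-fold in 6 of them. Beside Srebf1 no measured member was 2-fold apart: 1 of 7 was at least 2-fold lower, against 5.69% of 13475 genes, and 0 were at least 2-fold higher, against 5.97%. With flagged spots kept the counts were 1 and 0 of 10, against 5.74% and 5.86% of 14438 genes. A single member past 2-fold is too few to set apart from those shares.

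Mlxipl, the glucose-responsive activator, differed less. In the order control, diabetic, metformin, combination, its brighter probe read 4.69, 4.38, 3.97 and 4.26, and its dimmer probe read 2.46, 2.49, 2.18 and 2.80. The probes shared a low point on the metformin array but not a high point, since the brighter was highest on the control and the dimmer on the combination array. From control to diabetic the mean over both probes was -0.14, and this sign turned in 4 of 17 settings.

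The enzymes that begin the pathway were lower on the diabetic array by smaller amounts. Acaca, the cytosolic carboxylase that feeds synthesis, read 4.34, 3.88, 3.29 and 3.18 on its brightest probe in the order control, diabetic, metformin, combination. Another probe read 2.08, 1.89, 0.60 and 0.83, its diabetic spot being flagged, and a dim one read -1.01, -2.06, -2.82 and -3.04. All 3 probes placed both treated arrays below the diabetic array and the diabetic array below control. The remaining Acaca probe was above background on the diabetic (-3.40) and metformin (-2.61) arrays only, and it went the other way. The Acaca mean from control to diabetic was -0.75 over unflagged spots and -0.56 over all spots.

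Acacb encodes the carboxylase at the outer mitochondrial membrane, whose malonyl-CoA restrains fatty acid uptake by mitochondria. It read 3.01, 2.73, 2.13 and 2.18, and its other probe was not above background on any array. The control and diabetic values thus lay above the metformin and combination values. From control to diabetic it differed by -0.28 and from diabetic to metformin by -0.60.

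Acly gave 2 probes with different patterns. The brighter read 2.65, 2.49, 1.68 and 2.14, with flagged spots on the diabetic and combination arrays. The dimmer read -0.56, -0.92, -1.06 and -0.36, with no flag. Both probes were lowest on the metformin array, while the combination array was below control on the brighter and above it on the dimmer.

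Fasn, the synthase itself, read 4.92 in control, 4.27 in diabetic, 3.94 in metformin and 3.61 in combination liver. The control and combination spots were unflagged and differed by -1.32, or 2.49-fold. With its flagged spots Fasn differed by -0.65 from control to diabetic, a 1.57-fold lower level. The authors' deposited values for the same step gave -0.33. Most member probes are bright, and among the brightest of 5 equal groups of probes the median difference from control was -0.25 for diabetic, -0.47 for metformin and -0.19 for combination. Its part in the members' differences was not tested.

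Thrsp was measured by 2 unflagged probes that placed the arrays in the same order. They read 5.41 and 5.39 in control, 4.71 and 4.70 in diabetic, 4.02 and 4.21 in metformin, and 4.42 and 4.66 in combination liver. Thrsp was highest on the control and lowest on the metformin array. Its difference from control to diabetic was -0.69, and -0.33 with the authors' values. The brighter Me1 probe, flagged throughout, read 4.34, 3.49, 3.26 and 3.42, and the other read 3.31, 3.10, 2.99 and 3.05. Only the control array stood apart on the brighter probe, and the other stayed between 2.99 and 3.31.

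**Figure D3:**
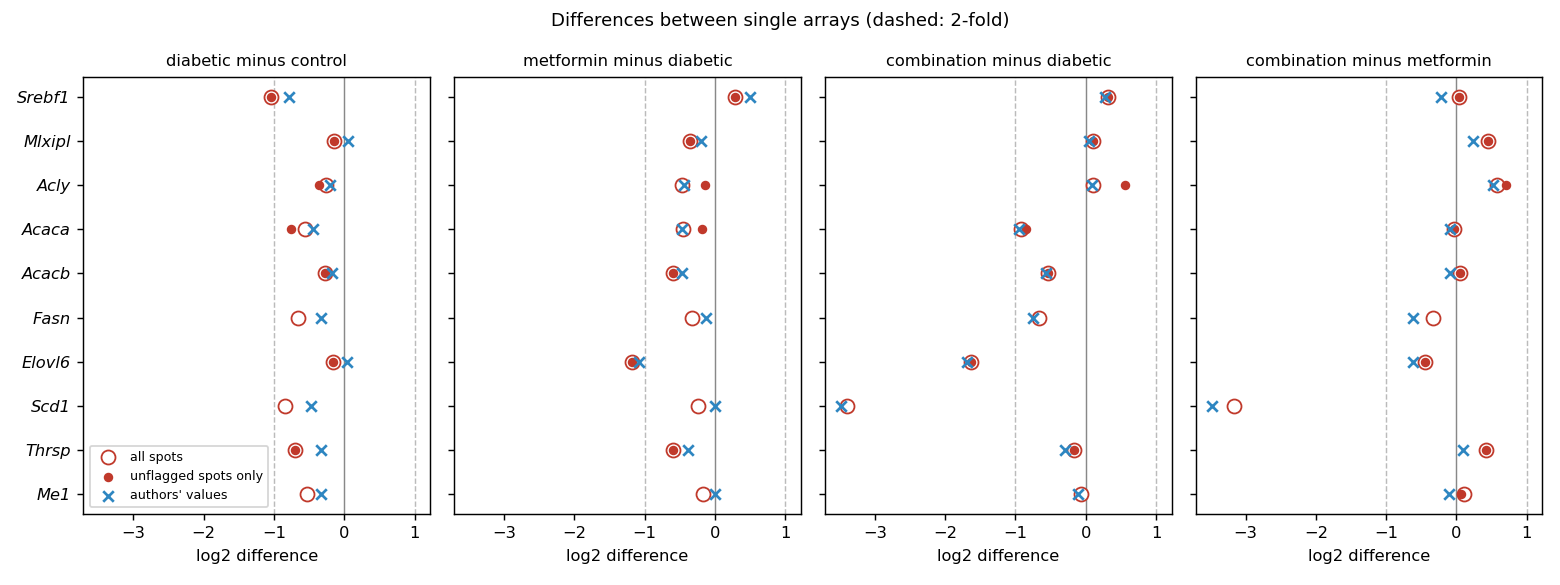
Log2 difference of each lipogenesis gene in 4 comparisons of single arrays. Filled points use unflagged spots, open circles all spots, and crosses the authors' deposited values with flagged spots kept, with dashed lines at 2-fold. Srebf1 passes the line from control to diabetic (-1.04), Elovl6 from diabetic to metformin (-1.19), and Elovl6 (-1.64) and Scd1 (-3.40) from diabetic to combination.

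The metformin array against the diabetic array asks what the drug changed in the disease model. Elovl6, the elongase that makes stearate, was the 1 member past 2-fold. Its 1 unflagged probe read 3.82 in control, 3.66 in diabetic, 2.48 in metformin and 2.03 in combination liver. The control and diabetic arrays lay close together and both treated arrays lay lower. Elovl6 was 2.28-fold lower on the metformin than on the diabetic array (-1.19), past 2-fold in 16 of 17 settings, the exception being the spike-in scale (-0.80). Of 15200 genes 2.13% had a lower difference. At least 2-fold lower were 1 of 7 measured members against 3.54% of 13900 genes, and at least 2-fold higher 0 against 8.82%. With flagged spots kept these were 1 and 0 of 10, against 3.48% and 8.62%.

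Thrsp (-0.59), Acacb (-0.60) and Mlxipl (-0.36) were lower on the metformin array by less than 2-fold. Acly and Acaca depended on flagged spots: Acly differed by -0.14 without them and -0.48 with them, and Acaca by -0.19 and -0.46. The Acaca value turned more on its probe near background, which entered this comparison with 0.79 in the other direction: over probes above background on all arrays the unflagged value was -0.67. Fasn (-0.33), Scd1 (-0.24) and Me1 (-0.17) had values only with flagged spots kept. With the authors' values these differences were -0.13, -0.003 and -0.004 in turn. Scd1 came to 0.009 with normexp, so its sign turned between settings. Srebf1 alone was higher (0.29), as it was in all 17 settings. The median over 7 members was -0.36 and over all genes -0.11. The 9 measured hepatocyte markers had a median of -0.38 in this comparison, 8 of them lower, and their part in the members' difference was not tested. On the spike-in scale the members' median turned to 0.03 while that of all genes was 0.27. The members' median thus stayed below the all-gene median but not below the diabetic level. Of the 7 members 3 were lower than on the diabetic array on that scale, and 4 were higher (Srebf1, Mlxipl, Acly and Acaca).

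The combination array against the diabetic array asks what both agents together changed. Scd1, the desaturase that makes oleate and palmitoleate, showed the largest difference of any member in the data. It read 5.50 in control, 4.66 in diabetic, 4.42 in metformin and 1.26 in combination liver. The 3 former arrays lay within 1.08 of each other and the combination array lay more than 3 log2 units below them. Scd1 was 10.6-fold lower on the combination than on the diabetic array, and only 0.120% of 14975 genes had a lower difference. This rests on 1 probe whose spot was flagged on all 4 arrays. From the spot's median pixel signal, corrected by normexp, the difference was -3.37, and with the authors' deposited values -3.49. The control, diabetic, metformin and combination spots had median pixel signals of 42819, 29014, 35169 and 3057. In repeated spots, flagged spots read between -0.25 and 0.34 away from their unflagged partners on the combination array, and up to 2.14 above on the diabetic array. The probe's sharing of signal with the related genes Scd2, Scd3 and Scd4 was not tested.

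Elovl6 was 3.11-fold lower on the combination than on the diabetic array (-1.64), between -1.88 and -1.62 over 17 settings. The next step down was Acaca at -0.84 over unflagged spots and -0.91 over all spots, then Fasn at -0.66 from a flagged diabetic spot and Acacb at -0.54. Srebf1 was higher (0.32), and Mlxipl (0.10), Thrsp (-0.17) and Me1 (-0.06) differed by less than 0.2. Acly was 0.56 higher over unflagged spots, from its dimmer probe alone. Its brighter probe, with flagged spots, was lower (-0.35), and the Acly mean over all spots was 0.11. Elovl6 alone of 7 measured members was at least 2-fold lower, against 5.79% of 14108 genes, and 0 were at least 2-fold higher, against 3.98%. With flagged spots kept, Elovl6 and Scd1 made 2 of 10 lower against 5.74% of 14975 genes, and 0 were higher against 4.01%. The metformin and combination comparisons share the diabetic array.

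The combination array against the metformin array asks what astragalus polysaccharide added. Scd1 was 8.98-fold lower on the combination array (-3.17), and -3.48 with the authors' values. No other member reached 2-fold. Elovl6 (-0.45) and Fasn (-0.34) were lower, and Acly (0.70 unflagged, 0.58 over all spots), Mlxipl (0.46) and Thrsp (0.42) were higher. Elovl6, Acly, Mlxipl and Thrsp kept these directions in all 17 settings, although Mlxipl and Thrsp came down to 0.05 and 0.02 on the spike-in scale. Srebf1 (0.03), Acacb (0.05), Acaca (-0.04) and Me1 (0.06) differed by less than the technical SD on the main scale. Their signs turned between settings, from -0.37 to 0.13 for Srebf1 and from -0.35 to 0.15 for Acacb. The ranges were -0.61 to 0.06 for Acaca and -0.34 to 0.20 for Me1. The Acaca value averages probes that disagreed (0.23, -0.11 and -0.23). Without flagged spots 0 of 8 measured members were past 2-fold, against 2.62% of 14363 genes higher and 8.72% lower. With them 1 of 10 was lower, against 8.66% of 15420 genes, and 0 were higher, against 2.74%. The median over members was 0.06 and over all genes 0.10.

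Other genes of the pathway's surroundings were taken from lists of known roles. Those that passed 2-fold moved in both directions on the combination array. Pklr, the liver pyruvate kinase gene and a classical ChREBP target, read 1.91 in control, 0.61 in diabetic, 0.57 in metformin and -0.80 in combination liver. Pnpla3, a lipid droplet protein gene induced by SREBP-1c, read 1.59, 0.96, 0.60 and -1.59 on its brighter probe, in the same order. On these probes both had their highest value on the control and their lowest on the combination array, like Scd1, Elovl6 and Fasn. The dimmer Pnpla3 probe was highest on the diabetic array (-2.16, against -2.45 in control). It was not above background on the combination array. From diabetic to combination Pklr and Pnpla3 differed by -1.42 and -2.54.

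Other genes stood higher on the combination than on the diabetic array. Those named here were also higher on the metformin than on the diabetic array, by less than 2-fold. Ppargc1b, a coactivator of SREBP-1c, read -0.32, 0.01, 0.28 and 1.81 on its unflagged probe, in the same order of arrays. Insig1, which holds SREBP in the endoplasmic reticulum and is itself an SREBP target, read 0.41, -0.19, 0.70 and 1.08, its metformin spot being flagged. Srebf2, the activator of cholesterol synthesis, read -1.09, -1.09, -0.11 and -0.03. Its difference from metformin to combination (0.08) was less than the technical SD of 0.11. Lpin1, a phosphatidate phosphatase gene, read 3.95 in control, 1.81 in diabetic and 4.40 in combination liver on the brighter of its 2 probes with no flag on those arrays. The metformin spot of that probe was flagged and read 2.77. Lpin1 differed by -1.55 from control to diabetic and by 2.17 from diabetic to combination.

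**Figure D4:**
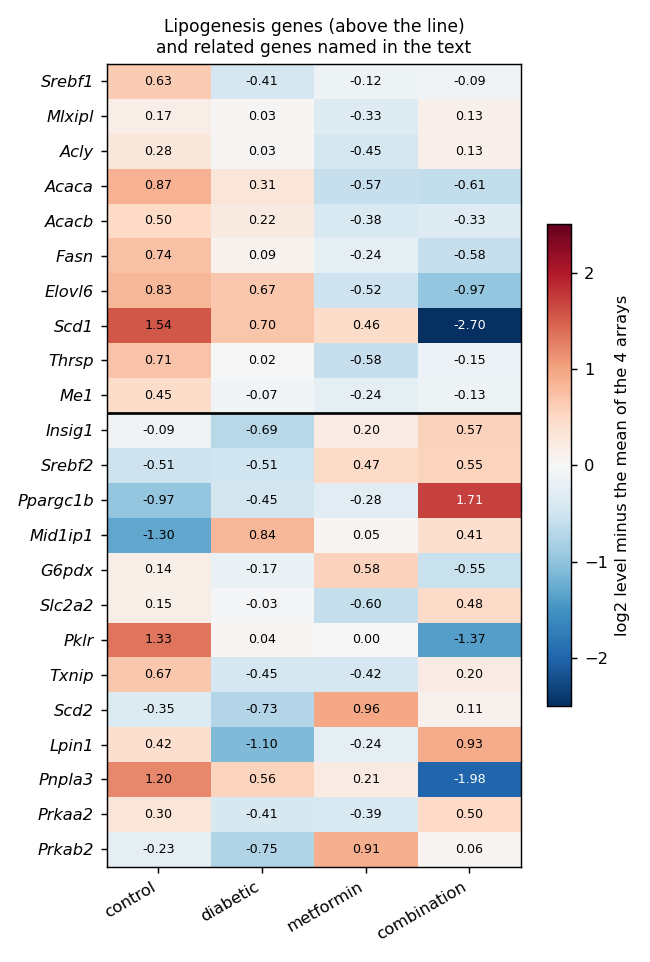
Level of each lipogenesis gene (above the line) and of the related genes named in the text for a difference of at least 2-fold, as log2 level on each array minus the mean of the 4 arrays, all spots kept, averaged over probes above background on all arrays. Scd1, Pklr and Pnpla3 are lowest on the combination array, where Ppargc1b, Insig1, Srebf2 and Lpin1 are highest.

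By list, SREBP processing genes had a median of 0.76 from diabetic to combination, with 2 of 6 measured genes at least 2-fold higher, against a median of 0.04 and 3.98% of all genes. From control to diabetic that list had a median of -0.11 and none past 2-fold. All 10 measured genes that supply acetyl-CoA and NADPH were lower in diabetic than in control liver, with a median of -0.36 and none by 2-fold. Of all genes 59.7% were lower in that comparison, with a median of -0.11 and 5.69% at least 2-fold lower. Of the 9 measured hepatocyte markers 8 were lower. G6pdx, which makes NADPH in the pentose phosphate path, was lower on the combination than on the metformin array (-1.13), and Slc2a2, the liver glucose transporter gene, higher (1.09). Among the lipogenic transcription partners, Mid1ip1, a relative of Thrsp whose product activates acetyl-CoA carboxylase, was 2.14 higher on the diabetic than on the control array. That list had a median of 0.07 over 10 genes. ChREBP targets outside lipogenesis had a median of -0.50 over 7 genes from control to diabetic, all 7 lower against 59.7% of all genes. Pklr (-1.29) and Txnip (-1.12), an inhibitor of thioredoxin, were past 2-fold, against 5.69% of all genes.

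All 13 measured genes of fatty acid use after synthesis were lower in diabetic than in control liver, with a median of -0.56 and Lpin1 alone past 2-fold, beside the same shares of 59.7% and 5.69% over all genes. Scd2, the desaturase isoform of brain and fat, was 1.69 higher on the metformin than on the diabetic array. LXR targets outside lipogenesis had no gene past 2-fold in the 4 comparisons. Over unflagged spots the largest, in a pair of genes for 1 sterol exporter, were 0.84 for Abcg8 from metformin to combination and -0.75 for Abcg5 from control to diabetic. With flagged spots kept, Abcg1, a cholesterol exporter gene, differed by 0.90 from diabetic to metformin. In the list of carboxylase regulation, Prkaa2, a catalytic subunit of AMP-activated kinase, differed by -1.39 from control to diabetic on its dim unflagged probe, and by -1.05 with its flagged probe included. Prkab2, a subunit of the same kinase, differed by 1.66 from diabetic to metformin.

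Marker genes of other cells were set beside these values, and fewer cells of a type cannot be told apart from less RNA per cell in whole liver. All 10 hepatocyte markers were above background on every array, and their summed level relative to the scale was 588 in control, 455 in diabetic, 353 in metformin and 485 in combination liver. Their median difference from control was -0.23, -0.76 and -0.14, against -0.35, -0.88 and -0.84 for the members over unflagged spots. Their part in the members' differences was not tested. Of 9 adipocyte markers 7 were above background on the control and 8 on each other array, with summed levels of 58.1, 42.5, 42.7 and 39.4, most of it from Car3, which liver also expresses. Plin1, a defining fat-cell gene, was not above background on any array. Among these markers, Cfd, the adipsin gene, was 2.28 higher in metformin than in diabetic liver. The 8 measured adipocyte markers had a median of 0.03 in that comparison, 4 higher and 4 lower, and Cfd alone was past 2-fold. Of all genes 8.82% were at least 2-fold higher. From diabetic to combination, Cfd differed by -1.48 and Cidec, a lipid droplet gene, by -1.89, against 5.79% of all genes at least 2-fold lower. The median over 8 adipocyte markers was then -0.03, with 3 higher and 5 lower. Acinar pancreas markers had summed levels of 172, 19.8, 38.2 and 11.6, with all 11 above background on 3 arrays and 5 on the combination array. On the diabetic and combination arrays most of the sum came from Cela1, which read 4.71, 3.70, 3.64 and 3.39 in log2 in the same order of arrays. The part of the acinar markers in the members' higher control levels was not tested. Macrophage markers had summed levels of 89.2, 57.3, 64.4 and 43.9 with all 6 above background, and of the 5 skeletal muscle markers Ckm was below background on all 4 arrays and Myh4 on the control and diabetic arrays.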

How the data were processed

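Liver RNA of 4 groups was measured on 1 Agilent array each, all on 1 slide. Per the file headers, the deposited spot intensity values come from Feature Extraction 11.5.1.1 under a 1-colour red protocol with a grid of build mm9, already corrected for background. Version 10.7 of that software stands in the submitters' processing notes. The authors' deposited table holds log2 values, which correlated at 0.999 to 1.00 with the log2 processed signals. Its columns share a median of 7.84, and per the labels' protocols raw files were imported into GeneSpring and normalized, by a method not stated.

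From the 59305 non-control spots of each array, log2 processed signals were averaged per probe, leaving out spots flagged as non-uniform or population outliers (2.18% to 5.35%). The scale was the 75th percentile over 51780 probes with an unflagged spot on all arrays. A scale over each array's own unflagged probes shifts with the number of flags. Differences were averaged per gene over those probes that were well above background on both arrays. A call is 2-fold. Accessions were named through RefSeq's GRCm38.p6 gene table (33767 of 56605 probes, 59.7%).

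All 10 members are named, and of the other lists each gene at least 2-fold apart in 1 of 4 comparisons, or else the 2 furthest apart; 1 such gene is not reported here. Members and lists were chosen with earlier results of these data known. With 1 array per group no test was possible. Calling was checked on simulated data. Another 16 settings were tried, 4 of them chosen after seeing the data. The normexp setting used the median pixel signal with an offset of 50, since the mean is not analysed here. limma 3.58.1, Python 3.11.15, numpy 2.4.6 and pandas 2.3.3 were used.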

Additional observations from a re-analysis of the deposited data

How the results depend on the processing

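The members' median difference kept its sign in all settings from control to diabetic and from diabetic to combination. From control to diabetic it moved from -0.35 to -0.54 with flagged spots kept (also with normexp on them), -0.49 with normexp, -0.24 after taking off the all-gene median, -0.23 on each array's own probes, -0.22 with quantile normalization and -0.10 on the spike-in scale. The count past 2-fold, 1 (Srebf1), became 0 on each array's own probes, the percentile over all spots or over probes above background, the spike-in scale, quantile normalization, normexp and the authors' values (both with and without flagged spots), and with the all-gene median taken off (both ways). From diabetic to metformin the median moved from -0.36 to -0.49 with the median as scale, -0.59 for probes above background on all arrays, -0.50 with the brightest probe, -0.22 with the percentile over probes above background, -0.21 with quantile normalization and with the authors' values, -0.19 without a background filter and 0.028 on the spike-in scale, where the count of 1 became 0. From diabetic to combination it moved from -0.17 to -0.36 with flagged spots kept, -0.33 with normexp on them, -0.43 with the authors' values on them, -0.40 with them kept and the all-gene median taken off, -0.41 on each array's own probes, -0.31 with quantile normalization and -0.30 with the authors' values. The count of 1 became 2 in the 4 settings that keep flagged spots, where Scd1 is added, and on each array's own probes and without a background filter, where Acaca is. From metformin to combination the median moved from 0.06 to -0.23 on each array's own probes, -0.065 with the percentile over probes above background, -0.34 on the spike-in scale, -0.22 with quantile normalization, -0.094 and -0.10 with the authors' values, and -0.065 with flagged spots kept and the all-gene median taken off, and the count of 0 became 1 (Scd1) in the 4 settings that keep flagged spots. The cause was not tested beyond the flagged spots. Among all genes past 2-fold, the share that was lower ranged from 26.2% to 50.5%, 8.46% to 42.2%, 56.9% to 80.7% and 67.7% to 95.2% in these 4 comparisons, against 48.8%, 28.6%, 59.2% and 76.9% as reported. No paired analysis was possible because each group has 1 array. No array could be left out for the same reason.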
